A study of Mus musculus with 6 samples.

Results

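Among the small RNA species of mouse testis, 168 whose identifier is a number after the prefix uniq_ had a mean of at least 100 RPM (reads of a species per 1000000 listed reads) over the control libraries. They were chosen by that mean alone, from 634394 species with uniq_ identifiers among 659239 listed in all, and the heat stress values played no part in the choice. The files do not define the prefix uniq_. The other 24845 species carry mmu_piR_ numbers, and 1232 of these had a control mean between 100 RPM and the highest mean of a uniq_ species, 1794 RPM. These serve as the species of the same control abundance.

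Testes came from C57BL/6 mice whose scrotum was warmed in a water bath for 15 minutes, to 43 °C in the heat stress group and to 36 °C in the control group, and the tissue was sampled 24 hours afterwards. The study divided 12 mice between the treatments and sequenced 3 libraries per group. The labels name no mutation or transgene in either group. Whether a library held 1 mouse or a pool is not stated, and the p-values refer only to the spread among the sequenced libraries.

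PIWI-interacting RNAs (piRNAs) are short RNAs of the germline that are bound by PIWI proteins and guide the silencing of transposons and the cleavage of other transcripts. In the adult mouse testis the most abundant of them are made in pachytene spermatocytes and round spermatids from long precursor transcripts. Pachytene spermatocytes are known to be sensitive to heat. Sequence, length, position and host gene of the uniq_ species were not analysed here, so no role can be given for any single one, and markers of testis cell types were likewise not examined. In whole tissue, fewer cells of a type and less RNA per cell cannot be told apart.

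The reads on listed species numbered 2573473 to 4255001 per control library and 582789 to 2599530 per heat stress library. Heat stress replicate 3 was the shallowest, and 1 of its reads is worth 1.72 RPM. The median uniq_ species of the 168 rested on 426 to 713 reads in the controls, on 70 and 275.5 reads in heat stress replicates 1 and 2, and on 17 reads in replicate 3. The lowest number behind any of them was 94 reads in a control library and 2 reads in heat stress replicate 3. Libraries of a group differed by more than sampling noise, with a chi-square per degree of freedom of 3.64 to 5.06 for pairs of controls and of 15.7 to 35.6 for pairs within heat stress.

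In control testis most of the 168 lay near the lower limit. There were 104 between 100 and 200 RPM, 52 between 200 and 500 RPM, 11 between 500 and 1000 RPM and 1 above 1000 RPM, with a median of 160.6 RPM. The median coefficient of variation between controls was 12.6%, against 10.7% for the mmu_piR_ species of the same abundance, and the highest was 82.4%. In 130 of the 168 every control reached 100 RPM. Just inside the limit lay uniq_443413 (100.6 RPM in control, 52.6 RPM in heat stress), uniq_469192 (100.8 and 32.4 RPM) and uniq_422379 (101.7 and 19.8 RPM). Just outside it lay uniq_486409 (99.97 and 48.2 RPM), uniq_222525 (99.1 and 30.7 RPM) and uniq_462863 (99.0 and 35.6 RPM).

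After heat stress nearly all of these species were lower, but the size of the change differed between the heat stress libraries. A species was counted as falling in a library at or under 50% of its control mean, as rising at or over 200%, and as holding in between. In heat stress replicate 1, 155 of the 168 fell, 9 held and 4 rose, beside 67.9% of all 50786 tested species that fell and 11.6% that rose there. In replicate 2, 59 fell, 105 held and 4 rose, beside 34.2% and 13.4% of all tested species. In replicate 3, 162 fell, 3 held and 3 rose, beside 63.7% and 14.6%. The 3 libraries are set against the same control mean, so these counts are not independent of one another.

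The median of the 168 species stood at 17.6%, 62.2% and 16.0% of the control mean in heat stress replicates 1, 2 and 3. Over all tested species these medians were 24.1%, 73.3% and 12.8%, and replicate 2 was nearest to control in both sets. In replicate 3 the order of the sets depended on the scale. By percentage the 168 were higher, but the median log2 ratio of RPM + 1 was -2.60 for them and -1.30 for all tested species. With 1.72 RPM per read there, the percentages of low species rest on few reads. Among the 168, replicate 2 lay nearest to the controls: it held the highest heat stress value for 161 of the 168 species and the lowest for none, and its level was 3.21 times that of replicate 1 and 3.38 times that of replicate 3 at the median. Replicate 1 was the lowest for 72 species and replicate 3 for 96. The median standard deviation between libraries on the log2(RPM + 1) scale was 1.12 in heat stress and 0.18 in control for these species, against 0.73 and 0.15 for the mmu_piR_ species.

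By pattern over heat stress replicates 1, 2 and 3, 94 species fell, held and fell, and 59 fell in all 3. A further 9 held, held and fell, and 2 fell, held and held. The other 4 were the ones that rose, 3 of them in every heat stress library and uniq_343318 in replicates 1 and 2 with a hold in replicate 3. No species fell in one heat stress library and rose in another. Set against the range of the controls, 160, 135 and 164 of the 168 lay below the lowest control in replicates 1, 2 and 3, and 5, 15 and 4 lay above the highest. Of all 50786 tested species, 36495, 25043 and 34521 lay below their lowest control there, and 8029, 12367 and 10463 above their highest.

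**Figure D1:**
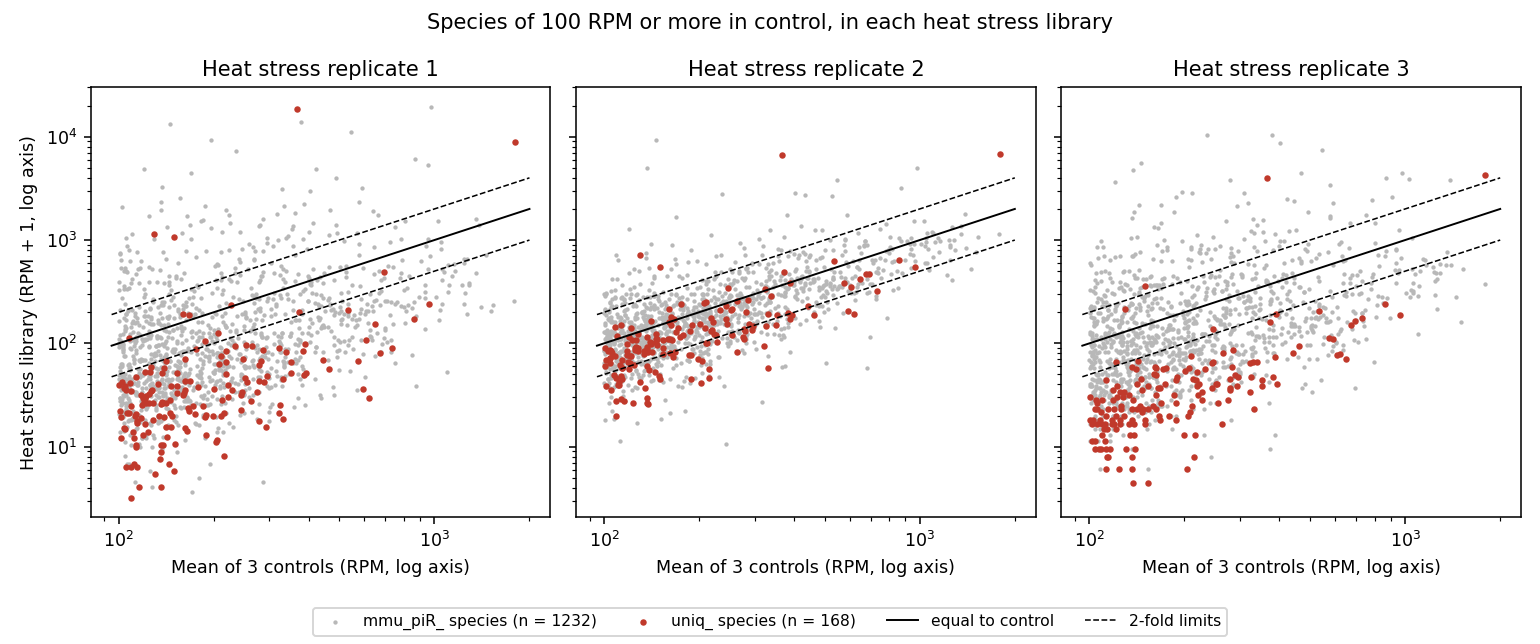
Level of each species in each heat stress library (RPM + 1, log axis) against its mean over the 3 controls (RPM, log axis), with 168 uniq_ species as red points, 1232 mmu_piR_ species of the same control abundance as grey points, the line of equality and dashed 2-fold limits. The red points lie mostly below the lower dashed line in replicates 1 and 3 (155 and 162 species) and mostly between the dashed lines in replicate 2 (105 species).

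The test across all species compared the groups (limma on log2(RPM + 1), Benjamini-Hochberg adjustment over all 50786 species). Of the 168, 132 were called lower in heat stress (adjusted p under 0.05), 4 were higher and 32 did not pass, all 32 of them with a log2 fold change below 0. Over all tested species 31.6% were called lower and 6.36% higher. The median log2 fold change was -1.92 for the 168 and -0.87 for all tested species, and it was -1.17 for the 33160 tested uniq_ species, of which 43.2% were called lower. With a pseudocount of 0.1 RPM in place of 1 RPM the median was -1.93 for the 168 and -1.72 for all tested species. The distance between these medians thus depended on the pseudocount, as that of 1 RPM understates the change of low species. The groups did not overlap for 138 of the 168, with heat stress below control in 134 and above in 4, beside 41.7% and 9.71% of all tested species. Of the 30 that overlapped, the highest heat stress value came from replicate 2 in 28.

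These counts depended on single libraries and on the scaling. The number called lower by limma was 68 without heat stress replicate 1 and 72 without replicate 3, against 159 without replicate 2. The median log2 fold change of the 168 stayed between -2.53 and -1.60. That of all tested species was -0.79, -0.77 and -1.25 without replicates 1, 3 and 2, and the share of them called lower is not given. With TMM factors, which treat most species as unchanged when libraries are scaled, 61 of the 168 were called lower and 4 higher, beside 15.9% and 8.59% of all tested species, and the median was -1.30 against -0.53 for all. When values were scaled to the uniq_ reads of each library alone, 43 were lower and 5 higher, beside 14.4% and 2.05% of the tested uniq_ species. On that scale the median was -0.57 for the 168 and -0.64 for all tested uniq_ species.

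A species chosen for a high control value can be lower in another library through the choice alone, and the size of this was measured in the controls. The choice was repeated on the mean of 2 controls, which gave 168 to 173 uniq_ species, and the level was read in the left-out control. The median log2 ratio of the left-out control to the mean of the others was -0.01, -0.08 and -0.03 for control replicates 1, 2 and 3, and 4, 6 and 3 of these species fell to 50% or less. Against the left-out control, which the choice did not use, the median log2 ratio was -2.57 to -2.40 in heat stress replicate 1, -0.71 to -0.59 in replicate 2 and -2.53 to -2.46 in replicate 3. The median difference of the heat stress libraries from an unused control was thus larger than that between controls in each of them.

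Ordered by control level, the most abundant species was uniq_345532, described with the species that rose, and the other 9 of the top 10 had lower means after heat stress. uniq_422372 stood at 968, 896 and 1025 RPM in control replicates 1, 2 and 3 and at 238, 547 and 187 RPM in the heat stress libraries, in the same order. All its heat stress values lay below all its controls, with the mean being 2.97-fold lower (limma log2 fold change -1.73, SE 0.45, adjusted p = 0.0106). uniq_446395 stood at 858, 788 and 936 RPM in control and at 172, 645 and 239 RPM in heat stress, a change of -1.52 (SE 0.48, limma adjusted p = 0.0235) with replicate 2 nearest to the controls. Both calls were lost with TMM scaling, at -1.11 and -0.91, and that of uniq_446395 also on leaving out any 1 library other than heat stress replicate 2 (limma adjusted p 0.0617 to 0.0809). Both were also lost with no filter on low values (limma adjusted p 0.212 and 0.389) and on the scale of the uniq_ reads (0.334 and 0.723). With edgeR neither passed (adjusted p 0.178 and 0.291). The call of uniq_446395 was further lost with DESeq2 (adjusted p 0.0892) and with thinning (limma adjusted p 0.0536).

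uniq_486190 showed the largest fall among the top 10. It had 588, 564 and 710 RPM in control and 28.8, 190.8 and 77.2 RPM in heat stress, its mean being 6.27-fold lower (limma log2 fold change -3.02, SE 0.56, adjusted p = 0.00422). uniq_433200 stood at 599, 519 and 660 RPM in control and at 35.4, 203.9 and 109.8 RPM in heat stress, so that its mean was 5.09-fold lower (limma log2 fold change -2.65, adjusted p = 0.00504). These species and uniq_424682, which went from 732 ± 57.2 to 195.4 ± 116.5 RPM (SD, n = 3), had their lowest heat stress value in replicate 1. For uniq_424682 the limma log2 fold change was -2.08 (adjusted p = 0.00587). Its call was lost with no filter on low values and on the scale of the uniq_ reads (limma adjusted p 0.0678 and 0.123).

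The remaining 4 of the top 10 varied in which heat stress library was lowest. uniq_388637 fell from 607 ± 29.4 to 177.0 ± 149.4 RPM and uniq_116379 from 674 ± 72.9 to 233.7 ± 208.6 RPM (SD, n = 3; limma log2 fold changes -2.09 and -1.90, adjusted p 0.00869 and 0.0152). uniq_195214 stood at 780, 752 and 413 RPM in control and at 152, 415 and 70.4 RPM in heat stress, so that replicate 2 just exceeded control replicate 3 (limma log2 fold change -1.91, adjusted p = 0.0171). The calls of uniq_116379 and uniq_195214 were lost with TMM scaling (limma adjusted p 0.0654 and 0.115). They were also lost without heat stress replicate 1 (0.0672 and 0.0731) or replicate 3 (0.0605 and 0.0831). With no filter, on the scale of the uniq_ reads and with thinning neither call held (limma adjusted p 0.0584 to 0.274). Neither held with edgeR (adjusted p 0.152 and 0.191) or with DESeq2 (adjusted p 0.0608 and 0.114). The call of uniq_388637 was lost with no filter on low values and on the scale of the uniq_ reads (limma adjusted p 0.0697 and 0.0817). It was also lost with edgeR (adjusted p 0.0992). uniq_459936 did not pass the test: it had 551, 588 and 936 RPM in control and 485, 470 and 165 RPM in heat stress (limma adjusted p = 0.104, with the mean 1.85-fold lower). Its heat stress values were all below its controls, but replicates 1 and 2 lay near control replicate 1.

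The largest falls were among species of 109 to 331 RPM in control. uniq_361028 stood at 233, 228 and 184 RPM in control and at 7.08, 45.0 and 6.86 RPM in heat stress, its mean being 10.9-fold lower (limma log2 fold change -3.91, SE 0.61, adjusted p = 0.0019). uniq_452264, the most abundant of these 8, stood at 359, 295 and 340 RPM in control and at 17.7, 56.5 and 22.3 RPM in heat stress, its mean being 10.3-fold lower (-3.50, SE 0.49, limma adjusted p = 0.000989). In both, every heat stress library was far below every control, and replicate 2 was the highest of the 3.

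The same order held in the other 6. uniq_501548 fell from 203.5 ± 52.3 to 18.4 ± 18.8 RPM and uniq_363094 from 137.9 ± 38.8 to 12.6 ± 11.2 RPM (SD, n = 3). uniq_420046 fell from 109.1 ± 6.80 to 12.6 ± 12.8 RPM, uniq_369590 from means of 116.0 to 12.7 RPM and uniq_116482 from 136.4 ± 6.42 to 14.4 ± 12.7 RPM. In each of these 5 the groups were far apart and the heat stress spread was set by replicate 2. uniq_362270 differed in its controls, with 82.9, 61.3 and 265.0 RPM in control replicates 1, 2 and 3, and stood at 3.10, 25.4 and 6.86 RPM in heat stress. The 6 log2 fold changes lay between -3.83 and -3.47 (limma adjusted p 0.00207 to 0.00475). Being chosen for size, these 8 describe the lower end of the range, and in replicate 3 they rested on 2 to 13 reads each. All 8 were called lower in every alternative fit of the test.

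Against this general fall, 4 species rose. uniq_344681 stood at 285, 434 and 379 RPM in control and at 18518, 6714 and 3960.3 RPM in heat stress replicates 1, 2 and 3, its mean being 26.6-fold higher (limma log2 fold change 4.45, SE 0.50, adjusted p = 0.000253). It ranked as number 20 of the 168 in control. Its lowest heat stress value was more than the level of any of the 168 in any control library.

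uniq_345532, the most abundant of the 168 in control, stood at 1501, 2411 and 1469 RPM there and at 8857, 6838 and 4237 RPM in heat stress (limma log2 fold change 1.86, SE 0.40, adjusted p = 0.0051). uniq_425662 stood at 137.1, 197.7 and 115.0 RPM in control and at 1059, 554 and 362 RPM in heat stress (2.02, SE 0.47, limma adjusted p = 0.00646). uniq_343318 stood at 171.9, 180.3 and 36.5 RPM in control and at 1154, 722 and 216.2 RPM in heat stress (2.42, SE 0.66, limma adjusted p = 0.0126). All 4 had their highest value in heat stress replicate 1, the next in replicate 2 and the lowest in replicate 3, and none overlapped with its controls. The call of uniq_343318, whose level in control replicate 3 was far under that in the other controls, was lost without heat stress replicate 1 or 2. It was also lost with thinning and with array weights (limma adjusted p 0.0584 and 0.0844). The other 3 calls held without any single library and with TMM scaling, but those of uniq_345532 and uniq_425662 were lost with no filter on low values (limma adjusted p 0.0779 and 0.0899).

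**Figure D2:**
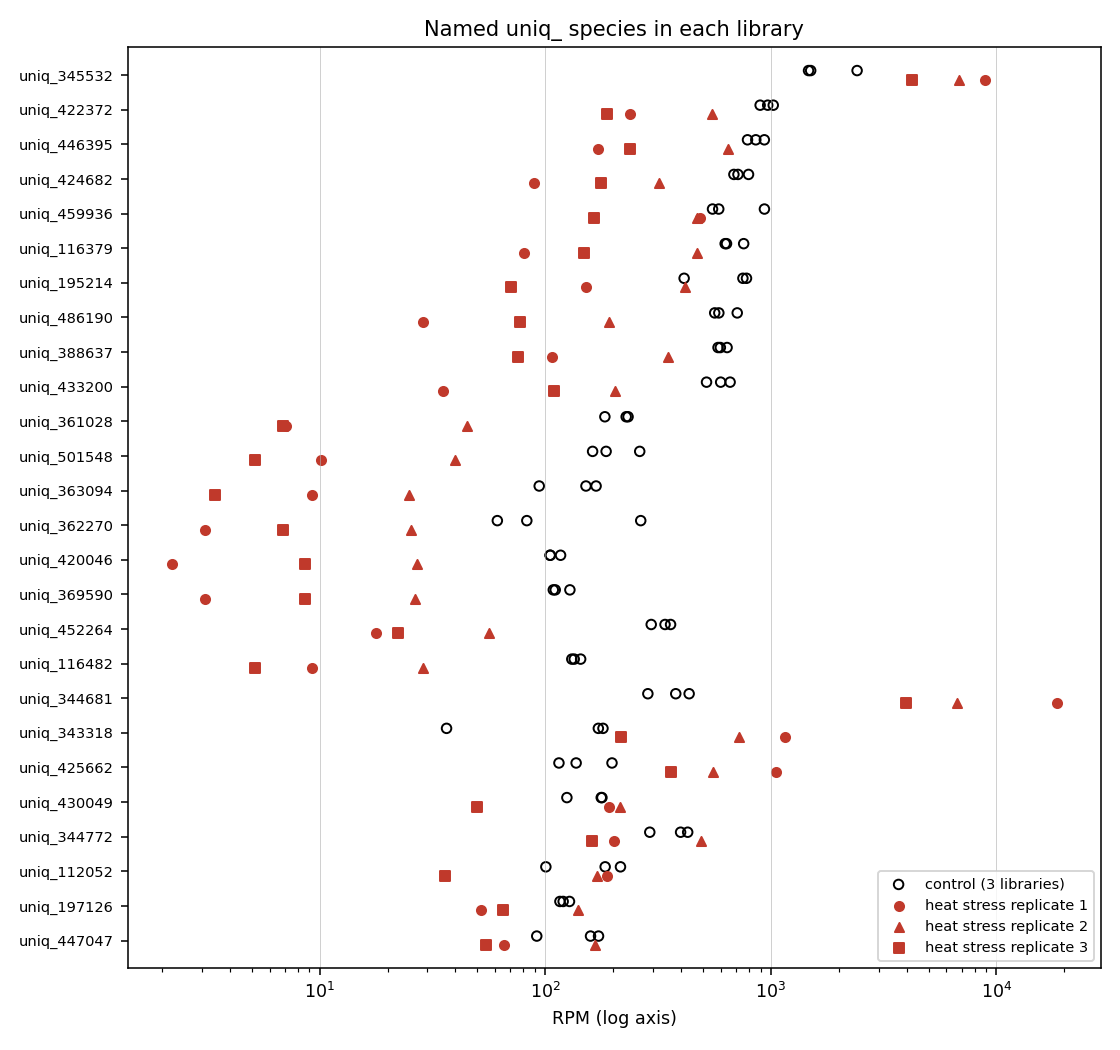
Value in each library (RPM, log axis) of the 26 species named for control level, size of change or a change nearest to 0, with open circles for the 3 controls and red symbols for heat stress replicates 1 (circle), 2 (triangle) and 3 (square). For the species called lower the red symbols lie left of the open circles, except for replicate 2 of uniq_195214 (415 RPM), which lies just right of 1 control. Replicate 2 is the rightmost red symbol of the species called lower. The red symbols lie right of them for uniq_345532, uniq_344681, uniq_343318 and uniq_425662.

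The smallest changes on average came from heat stress libraries that differed from one another. The 5 with a log2 fold change nearest to 0 were uniq_430049 (-0.31), uniq_344772 (-0.54), uniq_112052 (-0.59), uniq_197126 (-0.63) and uniq_447047 (-0.68), with limma adjusted p of 0.283 to 0.654. uniq_430049 stood at 177, 178 and 124.7 RPM in control and at 192, 214.7 and 49.8 RPM in heat stress. uniq_112052 stood at 184, 215.5 and 100.6 RPM in control and at 188, 169.6 and 36.0 RPM in heat stress. Replicates 1 and 2 lay above all controls for uniq_430049 and within their range for uniq_112052, and replicate 3 was well below the controls for both.

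In the other 3, replicate 2 alone stayed near the controls. uniq_344772 stood at 398, 428 and 291 RPM in control and at 202, 492 and 161 RPM in heat stress, with replicate 2 above all controls. uniq_197126 stood at 116, 128 and 120.1 RPM in control and at 51.8, 139.6 and 65.2 RPM in heat stress. For uniq_447047 the values were 158.8, 172.3 and 91.7 RPM in control and 65.9, 165.4 and 54.9 RPM in heat stress. A p that missed the threshold does not show that these species were unchanged: with TMM scaling the log2 fold changes of uniq_430049, uniq_344772 and uniq_112052 were above 0, at 0.31, 0.076 and 0.025. On the scale of the uniq_ reads uniq_430049 was called higher (limma log2 fold change 1.04, adjusted p = 0.0313), the fifth species called so there.

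Summed over the 168, the share of all listed reads hid these opposite movements. Control replicates 1, 2 and 3 had 3.75%, 3.84% and 3.77% of their reads on them. Heat stress replicates 1, 2 and 3 had 3.72%, 3.69% and 1.54%, so only replicate 3 was clearly lower. The 4 species that rose went from 0.244% ± 0.0681 in control to 1.77% ± 1.07 in heat stress (SD, n = 3). The other 164 went from 3.54% ± 0.0259 to 1.21% ± 0.868, with 0.758%, 2.21% and 0.663% in heat stress replicates 1, 2 and 3. The 4 were thus 5.30% to 8.39% of the reads of the 168 in control and 79.6%, 40.1% and 57.0% in heat stress replicates 1, 2 and 3. No test is given for these sums, since their members were chosen on values of these libraries.

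All uniq_ species together held 32.7% to 32.8% of the control reads and 12.5%, 22.8% and 7.36% of the heat stress reads. Within the uniq_ reads the 168 together took a larger part after heat stress, 29.8%, 16.2% and 20.9% against 11.5% to 11.7% in control. This came from the 4 species that rose, which held 79.6%, 40.1% and 57.0% of the reads of the 168 there. The other 164 took a smaller part of the uniq_ reads in every heat stress library than in every control. Of the uniq_ reads, uniq_344681 and uniq_345532 together made up 21.9%, 5.95% and 11.1% in heat stress and 0.546% to 0.868% in control. The number of the 168 that reached 100 RPM was 147 to 158 in the controls and 17, 90 and 15 in heat stress replicates 1, 2 and 3. Uniq_ species outside the 168 that reached 100 RPM numbered 22, 15 and 2 in those heat stress libraries.

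**Figure D3:**
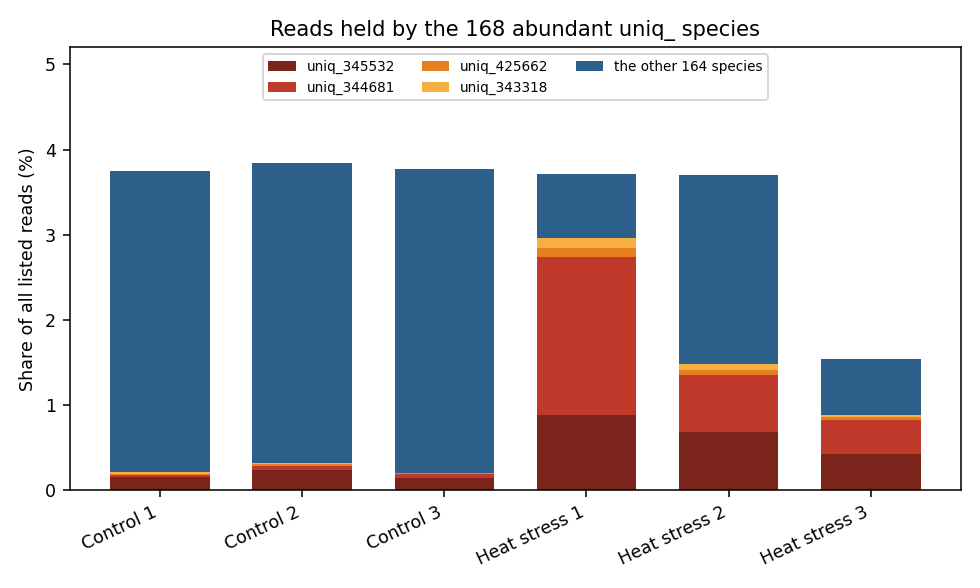
Share of all listed reads (%) held by the 168 species in each of the 6 libraries, as stacked bars that start at 0, with the 4 species that rose in red and orange and the other 164 in blue. The bars are of like height in 5 libraries (3.69% to 3.84%) and lower in heat stress replicate 3 (1.54%), and the blue part is smaller in every heat stress library than in every control.

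Known piRNAs of the same control abundance moved in both directions. Of the 1232 mmu_piR_ species, 389 were called lower (31.6%), 109 higher (8.85%) and 734 did not pass (limma), against 78.6% lower and 2.38% higher for the 168 uniq_ species. Their median log2 fold change was -0.73, against -1.92. With TMM scaling the split of the mmu_piR_ species was 132 lower and 174 higher, with a median of -0.12, against 61 and 4 with a median of -1.30 for the uniq_ species. The count of mmu_piR_ species called lower by limma was 187 to 228 without any 1 of the controls or of heat stress replicates 1 and 3, and 605 without heat stress replicate 2. The count called higher was 64 to 69 without any 1 of the controls and 84 to 151 without any 1 of the heat stress libraries. When each type was scaled to its own reads the order turned: 43 of the 168 uniq_ species (25.6%) and 425 of the 1232 mmu_piR_ species (34.5%) were called lower by limma, with medians of -0.57 and -1.07. That scale sets the total of each type equal in all libraries, so a difference between the types as a whole is not in it. Both types were chosen by the same limit on the same controls, and neither count is a test of the difference between them.

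The RPM values were also compared by tier of control abundance. Between 100 and 150 RPM, 63 of 78 uniq_ species and 115 of 448 mmu_piR_ species were called lower, with median log2 fold changes of -1.85 and -0.54. Between 150 and 300 RPM these were 48 of 62 and 140 of 438, with medians of -1.91 and -0.76. At 300 RPM and over they were 21 of 28 and 134 of 346, with medians of -2.02 and -0.91. On the RPM scale the median of the uniq_ species was thus lower than that of the mmu_piR_ species in every tier. The tiers were not compared on the other scales.

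Library by library, 697, 204 and 567 of the 1232 mmu_piR_ species fell in heat stress replicates 1, 2 and 3, which is 56.6%, 16.6% and 46.0%, against 92.3%, 35.1% and 96.4% of the uniq_ species. Rises were seen in 140, 99 and 176 of them (11.4%, 8.04% and 14.3%), against 2.38%, 2.38% and 1.79%. A hold in all 3 heat stress libraries was found for 242 of the 1232 and for none of the 168. The lowest heat stress library also differed between the types: replicate 1 was lowest for 719 and replicate 3 for 343 of the mmu_piR_ species, against 72 and 96 of the uniq_ species. When each control was read against the other controls' mean, 0.595% to 1.79% of the uniq_ and 2.19% to 2.84% of the mmu_piR_ species fell.

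**Figure D4:**
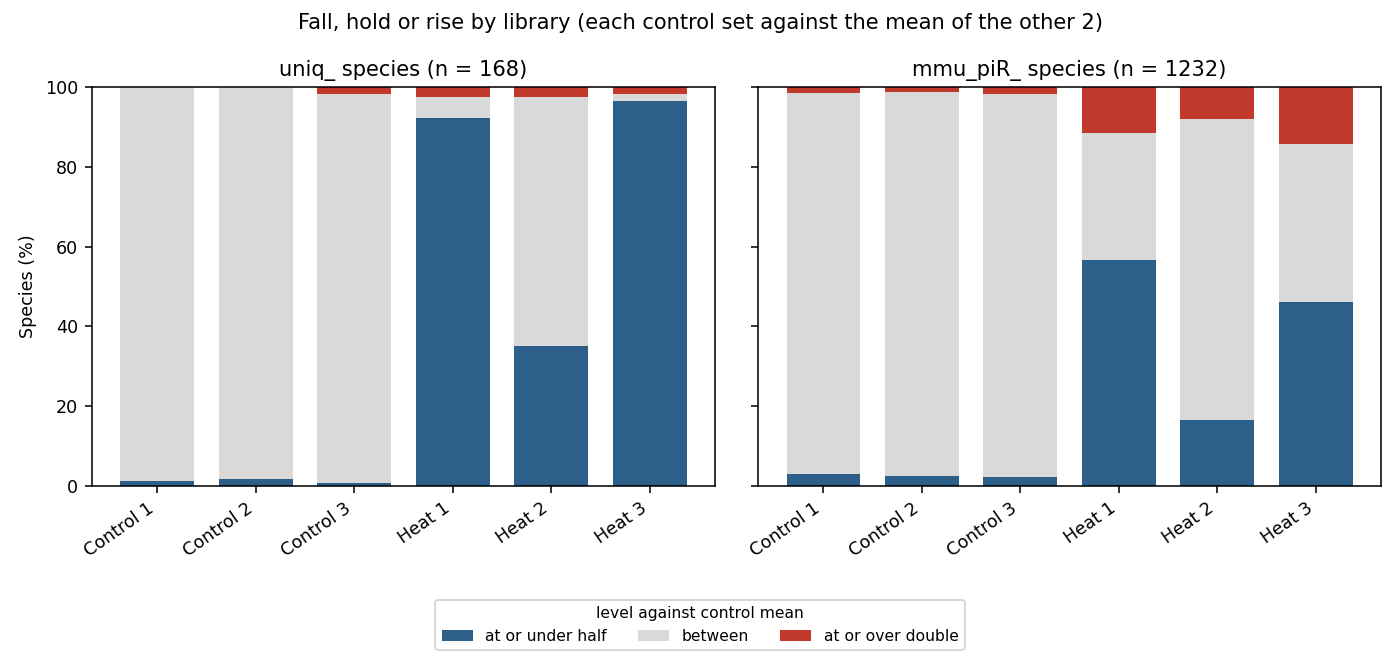
Share of species (%) at or under 50% (blue), between (grey) and at or over 200% (red) of the control mean in each library, for 168 uniq_ species on the left and 1232 mmu_piR_ species on the right, where a control is compared with the mean of the other 2 controls. The blue part is 92.3%, 35.1% and 96.4% on the left and 56.6%, 16.6% and 46.0% on the right in heat stress replicates 1, 2 and 3.

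Control replicate 3 stood apart from the other controls at these species. Across the 168, Pearson's r of log2(RPM + 1) was 0.97 between control replicates 1 and 2, and 0.82 and 0.78 between each of them and replicate 3. For the 1232 mmu_piR_ species the 3 control pairs gave 0.82 to 0.84. These coefficients run across species that share libraries and depth, and describe the libraries only. Among the 168, 15 were at least 1.5 times as high in control replicate 3 as in the mean of replicates 1 and 2, and 27 were lower by that factor or more.

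The species with a deviating control were also mostly lower after heat stress. Relative to control replicates 1 and 2, the median level in heat stress replicates 1, 2 and 3 was 18.5%, 57.5% and 17.2% for the 15 species, 18.0%, 52.7% and 12.4% for the 27, and 15.3%, 66.3% and 17.1% for the other 126. Of these groups, 13, 21 and 98 species were called lower (limma). The like groups of mmu_piR_ species had 19 of 67, 31 of 99 and 339 of 1066 called lower. Without control replicate 3, 101 of the 168 were called lower and 4 higher (limma). The median log2 fold change was -1.95 for the 168 and -0.79 for all tested species. In that fit 201 of the 1232 mmu_piR_ species were called lower.

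The number in the identifier is the remaining property of a uniq_ species in the files. Sorted by this number, the species formed stretches in which every row, or all but 1, had reads in heat stress replicate 1, and between them lay stretches in which the rows had reads in one of the other libraries. There were 17 stretches of at least 60 rows with reads in heat stress replicate 1, with 79427 rows in all. All 168 species lay in 11 of them, and each of the 168 had at least 5 reads in that library. As the stretches were made of rows with reads there, this placing largely followed from those reads and is no separate result. The longest stretch, from number 360459 to 506247, held 134 of the 168, of which 111 were called lower, 1 higher and 22 not (limma), with a median log2 fold change of -1.96. Of the other tested species in it, 5492 of 16086 were called lower, with a median of -1.07. These stretches were examined after the values were seen.

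Of the 4 species that rose, 3 lay in short stretches, which were singled out for that reason. Numbers 343139 to 343360 and 344537 to 345668 cover 543 rows and held 6 of the 168. Of these, uniq_343318, uniq_344681 and uniq_345532 rose, and uniq_343155, uniq_344772 and uniq_345392 did not pass the test, with log2 fold changes of -1.43, -0.54 and -0.73 (limma adjusted p 0.052, 0.361 and 0.267). None of the 6 was called lower. Among the other tested species of these stretches, 7 of 23 and 14 of 167 were called higher, and 4 and 49 were called lower. In the longest stretch, also made of rows with reads in heat stress replicate 1, 351 of 16086 others were higher and 5492 lower. Among all 33160 tested uniq_ species 421 were higher and 14309 lower, but these were not chosen by reads in that library. The fourth species that rose, uniq_425662, lay in the longest stretch. Of the 421 tested uniq_ species called higher, 352 lay in that stretch and 24 in the short ones.

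Neighbours in number were rare among the 168, with 2 pairs no more than 10 apart. uniq_422372 and uniq_422379 stood at 963 and 101.7 RPM in control and fell by 1.73 and 2.54 on the log2 scale. uniq_443413 and uniq_443418 stood at 100.6 and 278 RPM in control and at 52.6 and 74.8 RPM in heat stress. All members of these pairs were lower after heat stress, as were nearly all of the 168, so this does not set neighbours apart. The members of a pair differed in level.

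**Figure D5:**
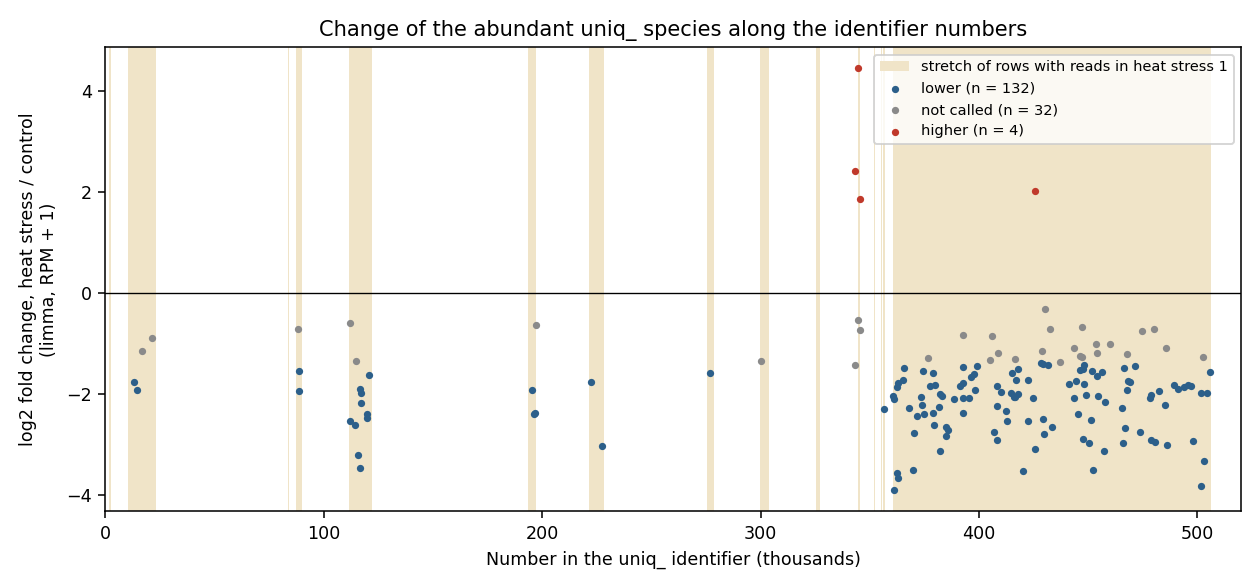
Log2 fold change of heat stress over control (limma, RPM + 1) of the 168 species against the number in their identifier (axis in units of 1000), coloured by call (132 lower, 32 not called, 4 higher), with shaded stretches of rows that have reads in heat stress replicate 1. Of the 4 points above 0, 3 lie between numbers 343139 and 345668, and the stretch from 360459 on holds 134 of the points.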

How the data were processed

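Small RNA of mouse testis was sequenced in 3 heat stress and 3 control libraries. The authors deposited 1 value per listed species and library. Per the file headers these are called tpm, but they behave as RPM. Every library sums to 1000000, and 100% of the values above 0 are whole multiples of its smallest value within 0.001 of a read. The read numbers were recovered from this. No source used here gives the aligner, the origin of the identifiers or the build. The files hold no column that could not be mapped to a sample.

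The values were fitted as log2(RPM + 1) by limma 3.58.1 (R 4.3.3; trend and robust options, no covariate). Species had to reach 1 RPM in 3 or more libraries, which 50786 did, among them all 168 described here. Benjamini-Hochberg adjusted p was taken over all of them with a threshold of 0.05. The log2(RPM + 1) scale understates the change of low species. Alternatives were a pseudocount of 0.1, other filters, TMM factors on the RPM values, scaling to the reads of each identifier type, edgeR 4.0.16 and DESeq2 1.42.0 on recovered reads, array weights, a replicate block, thinning to 582789 reads, leaving out each library, other forms of the choice of species and other fold limits. Leaving out the species that rose was added after seeing the values, as were the split by control replicate 3 and the stretches of identifier numbers. The fits were also run on simulated data, where the heat stress libraries differed only by random draw and depth. That setting leaves out the departure of heat stress replicate 2 from the others, and its outcome is not used here.

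The species and the lists were chosen with earlier results of these data known. Those named are the 10 with the highest control mean, the 8 largest falls and up to 8 largest rises among species past the threshold without overlap of the groups, the 5 with a change nearest to 0, and those next to the limit of 100 RPM.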

Additional observations from a re-analysis of the deposited data

How the results depend on the processing

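Of the 136 calls among the 168 species, none changed sign in any other fit of the test, and the limits are the spread of the heat stress group and the 582789 reads of heat stress replicate 3. The species called lower numbered 50 with no filter, 61 with TMM, 43 on the scale of the uniq_ reads, 51 with edgeR, 76 with DESeq2, 81 after thinning and 68 to 159 on leaving out 1 library, against 132. With a control limit of 50 RPM they were 422 of 525, and with 200 RPM 49 of 64. Those called higher, 4 in the report, were 2 with no filter, 2 at the limit of 200 RPM and 3 to 4 on leaving out 1 library. Of the mmu_piR_ species, 71 were called lower with no filter, 624 with array weights, 132 with TMM, 89 with edgeR, 218 with DESeq2, 222 after thinning and 187 to 605 on leaving out 1 library. They were called higher in 32 cases with no filter, 174 with TMM, 60 on their own reads' scale, 179 with edgeR and 64 to 151 on leaving out 1 library. Over all tested species 31.6% were called lower in the main fit and 15.9% with TMM. On the scale of the uniq_ reads 14.4% of the tested uniq_ species were. The share of all tested species called in the other fits is not given. Those counts therefore do not set the 168 apart from the rest. The causes were not tested.

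The median log2 fold change of the 168 was -0.57 on the scale of the uniq_ reads and -2.53 to -1.60 on leaving out 1 library. The difference in their share of all reads, heat stress minus control, was -0.803 percentage points. It was 10.7 points as a share of the uniq_ reads, with the 4 species called higher included. As a share of all reads it was -2.33 without those 4 and -1.17 to -0.0812 on leaving out 1 library. For heat stress replicate 2 the falls were 95 with 1.5-fold limits, 12 with 4-fold limits and 32 with TMM, and the rises 2 with 4-fold limits. In replicate 3 there was 1 rise with 4-fold limits, and in replicate 1 there were 8 rises with TMM.

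The replicate numbers were not taken as pairs, since same-numbered libraries had correlations of -0.02 to 0.02 in their deviations. With a replicate block, 138 of the 168 were lower and 4 higher. Among 464 values of 29 named species, 386 kept direction and call, 52 lost the call, 7 gained it and 19 turned direction, none of the last from a called species. Of the 19, uniq_430049 on the uniq_ scale was itself past the threshold (limma adjusted p = 0.0313). The log2 fold change of uniq_112052 was 0.025 with TMM, 0.75 on the uniq_ scale, 0.46 with edgeR, 0.19 with DESeq2 and -1.01 to 0.17 on leaving out 1 library, where it was above 0 without heat stress replicate 3. uniq_430049 was at 0.31, 1.04, 0.68 and 0.40 in the same order, and at -0.68 to 0.36 on leaving out 1 library, again above 0 without heat stress replicate 3. uniq_344772 was at 0.076 with TMM, 0.81 on the uniq_ scale and 0.20 with edgeR. uniq_197126 was at 0.71 and 0.051, and uniq_447047 at 0.66 and 0.027, on the uniq_ scale and with edgeR. uniq_443413 was at 0.25 and uniq_459936 at 0.35 on the uniq_ scale.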

Other observations

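The order of the numbers also held beyond the species described above. After the longest stretch, numbers 506258 to 531245 all had reads in heat stress replicate 3 and none in replicate 1. Numbers 531247 to 766943 all had reads in heat stress replicate 2 and none in the other heat stress libraries. The 159013 rows from 766951 to 1170216 all had reads in control replicate 2 and none in any heat stress library, and the rows up to number 1644141 followed with control replicates 3 and 1. None of the 168 species, which all had reads in heat stress replicate 1, lay in these later stretches, whose rows had none there. That outcome was therefore fixed by those reads. One short stretch without any of the 168, numbers 355024 to 355422, held 21 tested species, of which 12 were called higher and 0 lower by limma, with a median log2 fold change of 1.53. It was singled out after its values were seen.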
